A study of Mus musculus with 8 samples.

Results

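Histones are the proteins around which nuclear DNA is wrapped, and they are encoded by 2 kinds of gene that were compared here in mouse thymocytes with and without Sel1l. The members are the rows of the expression table whose symbol is that of an H1, H2A, H2B, H3 or H4 histone gene, and there were 76 of them among 16538 genes. Of these, 64 are replication-dependent genes of the histone clusters and 12 are variant histone genes, which lie outside the clusters except that H2aj is annotated next to H4f16, the Hist4 gene. The replication-dependent genes lie on chromosome 13 (51 genes, the former Hist1 cluster), chromosome 3 (10, Hist2), chromosome 11 (2, Hist3) and chromosome 6 (1, Hist4).

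The cells were DN3 thymocytes, CD4-CD8- double negative cells at the stage at which the T cell receptor β-chain is tested, sorted from C57BL/6 mice at 6 weeks of age. The control group held 4 libraries of Sel1l-f/f mice, which the titles call WT and which carry the floxed alleles without Cre. The Sel1l CKO group held 4 libraries of Sel1l-f/f mice with the hCD2cre transgene, which is active from early thymic progenitors onward and deletes Sel1l, the adaptor of the HRD1 ubiquitin ligase in endoplasmic reticulum-associated degradation (ERAD). The values are RPKM, reads scaled to gene length and library size, from stranded mRNA libraries. The authors give n = 4 for these data and define n as independent biological replicates unless a legend says otherwise. Nothing in the labels says whether each library came from 1 mouse, so p-values measure the spread between these libraries. In sorted bulk cells, fewer cells of a kind and less RNA per cell cannot be told apart.

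The replication-dependent genes supply the bulk of histone protein while DNA is copied in S phase. They have no introns as a rule, and their mRNA normally ends just past a conserved stem-loop instead of in a poly(A) tail. The stem-loop binding protein SLBP and the U7 small nuclear ribonucleoprotein direct that cut, and NPAT coactivates the genes at the start of S phase. Variant genes such as H3f3a, H3f3b and H2az1 are transcribed throughout the cell cycle, contain introns and give polyadenylated mRNA, and H2ax is known in both forms. DN3 cells that pass β-selection divide rapidly, a step at which histone supply is needed. The kit used here selects poly(A) RNA, so a level of a replication-dependent gene is not that of its whole mRNA.

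The stem-loop is shown for the member that differed by genotype, 3 others with large differences between libraries, and H2ax. Capitals mark both arms of the stem, with the loop between them in lower case, and 5 bases are given on each side, from the GENCODE M21 transcripts.

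H2bu2 (GRCm38 chr11:58949344-58949369, plus strand): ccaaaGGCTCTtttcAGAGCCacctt

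H2bc8 (GRCm38 chr13:23571838-23571863, plus strand): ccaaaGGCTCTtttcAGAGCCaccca

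H2aw (GRCm38 chr11:58955167-58955192, plus strand): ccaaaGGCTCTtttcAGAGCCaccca

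H1f2 (GRCm38 chr13:23739507-23739532, plus strand): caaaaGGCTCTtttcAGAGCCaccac

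H2ax (GRCm38 chr9:44335235-44335260, plus strand): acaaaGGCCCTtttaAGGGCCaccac

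The first 4 share the same stem-loop, which 24 replication-dependent genes carried, and H2ax has another stem and loop. A stem-loop of this form was found past the stop codon in 39 of 64 replication-dependent genes, in 1 of 12 variant genes (H2ax) and in 15 of 21624 other protein-coding genes (0.0694%). It began 24 to 58 bases after the stop codon. Of the 25 replication-dependent genes without a match, 12 have 0 annotated bases past the stop codon, 4 have 1 to 48, 1 has no annotated stop codon and 8 have 50 or more. The annotated transcripts of H1f2, H2aw, H2bu2 and H2bc8 run on for 840, 1643, 169 and 155 bases past the stem-loop.

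The promoters hold the motifs known from histone genes. Searches for the TATA box (letters TATAAA), for the CCAAT box and for the octamer (letters ATTTGCAT) covered both strands from 250 bases before to 50 bases after each RefSeq start (GRCm38.p6). TATAAA was found in 58.8% of 51 promoters of 50 replication-dependent genes, in 9.09% of 11 variant promoters and in 13.6% of all 32851 promoters. CCAAT was found in 86.3%, 54.5% and 37.4% of them. The octamer, a site known from H2B promoters, was found in 23.5%, 9.09% and 1.74%. Within the replication-dependent genes it was in 6 of 14 H2A and 6 of 12 H2B promoters, and no H1, H3 or H4 promoter held it. CCAAT was in every H1, H2A, H2B and H3 promoter and in 3 of 10 H4 promoters.

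The 250 bases before the start are printed for both chromosome 11 genes, which had the largest negative log2 fold changes beside H2ac4, and for H2bc8, with capitals on the motifs.

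H2bu2 (GRCm38.p6 chr11:58948661-58948910, plus strand): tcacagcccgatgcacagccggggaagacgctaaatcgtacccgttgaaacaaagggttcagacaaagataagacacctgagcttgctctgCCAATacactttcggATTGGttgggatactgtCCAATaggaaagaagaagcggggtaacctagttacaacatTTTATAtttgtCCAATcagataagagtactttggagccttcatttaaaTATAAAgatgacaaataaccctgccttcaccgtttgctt

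H2aw (GRCm38.p6 chr11:58954435-58954684, plus strand): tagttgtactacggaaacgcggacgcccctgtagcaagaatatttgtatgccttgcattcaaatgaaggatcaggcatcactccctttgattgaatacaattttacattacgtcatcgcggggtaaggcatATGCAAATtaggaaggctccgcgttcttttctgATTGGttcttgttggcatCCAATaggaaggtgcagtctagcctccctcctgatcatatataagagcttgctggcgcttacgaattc

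H2bc8 (GRCm38.p6 chr13:23571150-23571399, plus strand): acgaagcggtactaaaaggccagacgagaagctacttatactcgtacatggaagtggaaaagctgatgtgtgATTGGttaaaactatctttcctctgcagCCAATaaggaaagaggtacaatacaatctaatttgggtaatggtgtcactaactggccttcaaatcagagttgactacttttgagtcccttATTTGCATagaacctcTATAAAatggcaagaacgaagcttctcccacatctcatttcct

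The H2bu2 promoter held 4 CCAAT matches, 2 TATAAA matches and no octamer, counting both strands. The H2aw promoter held 2 CCAAT matches and 1 octamer without TATAAA, and the H2bc8 promoter held 2 CCAAT matches, 1 TATAAA and 1 octamer.

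Library totals recovered from the values ranged from 32900252 to 50401358 reads. Sel1l, the deleted gene, was at 1.67 ± 0.114 RPKM (SD, n = 4) in control and 1.08 ± 0.222 in Sel1l CKO, a log2 fold change of -0.59 (SE 0.13, limma adjusted p = 0.0327), with no overlap. This call was lost in 9 of 20 alternatives, among them 6 of the 8 fits without 1 library. The value covers the whole gene, so reads from exons left in place count too. The DN3 markers, such as Ptcra and Rag1, were all present, with a summed RPKM of 379 to 473 in control and 304 to 351 in Sel1l CKO. Markers of B lineage cells summed to at most 0.226 and 0.0877 RPKM, and those of erythroid cells to at most 1.11 and 2.66. Myeloid and dendritic markers summed to 3.51 to 6.19 in control and 1.91 to 3.97 in Sel1l CKO, and stromal and epithelial markers to 4.31 to 6.18 and 2.87 to 3.60. Among these last, Epcam, an adhesion molecule, was lower in Sel1l CKO (4.03 ± 0.751 and 2.01 ± 0.178 RPKM, log2 fold change -0.95, limma adjusted p = 0.00273). Pecam1 was at 1.16 ± 0.0808 and 1.12 ± 0.210 RPKM, with overlap (log2 fold change -0.06, limma adjusted p = 0.831), while Krt5, Krt8, Psmb11 and Col1a1 were at or near 0. The 7 markers of cells past β-selection and of double positive cells summed to 39.47 to 46.35 RPKM in control and 31.95 to 39.56 in Sel1l CKO. Most of this sum was Cd27, at 37.87 ± 3.731 and 31.98 ± 4.203 RPKM, with overlap (log2 fold change -0.25, limma adjusted p = 0.227). Cd8a was at 1.096 ± 0.4855 and 1.268 ± 0.4408 RPKM, and Cd4 at 0.138 ± 0.0449 and 0.176 ± 0.0773. The part of these cells in the histone values was not tested.

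The members differed by kind in level. Replication-dependent genes were low. The 64 genes summed to 207, 229, 328 and 247 RPKM in control replicates 1 to 4 and to 225, 174, 190 and 191 in Sel1l CKO replicates 1 to 4. Apart from 1 gene whose reads could not be recovered, they took 5233 to 11756 reads a library, 0.0116% to 0.0334% of all reads. The 12 variant genes summed to 703, 722, 747 and 768 RPKM in control and 803, 798, 683 and 712 in Sel1l CKO, and took 0.251% to 0.326% of reads. On the deposited RPKM scale the variant sum was 2.28 to 3.39 times the replication-dependent sum in control libraries and 3.57 to 4.59 times in Sel1l CKO libraries. That ratio depends on the gene lengths used, which include introns in some genes. By reads the ratio was further from 1, and the genotypes overlapped. It was higher in control 1 (101841 variant and 6114 replication-dependent reads) than in Sel1l CKO 3 (83981 and 5344). The 2 RPKM sums share their libraries, and control 3 alone had the highest replication-dependent sum and the lowest ratio.

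**Figure D1:**
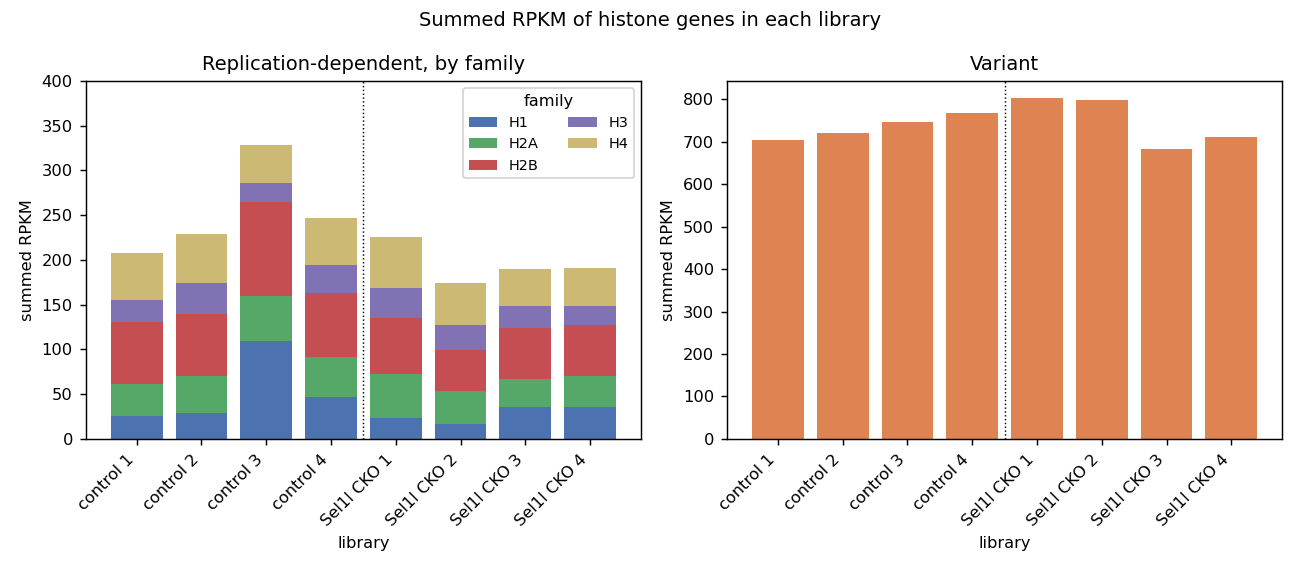
Summed RPKM of the replication-dependent genes, stacked by histone family (left), and of the variant genes (right), in each of 8 libraries, with a dotted line between genotypes. Control 3 has the tallest replication-dependent bar, at 328, through H1 and H2B, and the variant bars lie between 683 and 803.

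The sum of the replication-dependent genes was 253 ± 52.7 in control and 195 ± 21.6 RPKM in Sel1l CKO (77.2% of control), and Sel1l CKO 1 lay above control 1. Without control 3 the control mean was 228 ± 19.8, and the Sel1l CKO mean was 85.7% of it. The H1 family went from 52.8 ± 39.0 to 27.8 ± 9.75 RPKM, with 109 in control 3 alone. The H2B family went from 78.3 ± 17.4 to 55.5 ± 6.80, and here the genotypes did not overlap, with Sel1l CKO at 62.0, 45.9, 57.0 and 57.2 and control at 69.3, 68.3, 104 and 71.2. This fall lay in H2bc8 (31.8 ± 10.7 and 18.0 ± 4.87) and H2bu2 (19.7 ± 6.18 and 9.54 ± 0.872). The summed mean of the remaining H2B genes did not fall. H2A was at 43.2 ± 6.24 and 37.9 ± 7.91, H3 at 28.3 ± 6.02 and 27.0 ± 5.82, and H4 at 50.1 ± 5.70 and 46.8 ± 6.49. The variant sum was 735 ± 28.5 and 749 ± 60.8 RPKM. No test was run on a sum over members.

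A filter of a mean of at least 1 RPKM left 6512 genes to be tested with limma on log2(RPKM + 0.1), among them 52 members, 44 replication-dependent and 8 variant. Another 23 members had values below the filter, and H1f8, an oocyte linker histone, was listed at 0 in every library. Over all tested genes 344 were called at an adjusted p under 0.05, which is 5.28%, and 66 of them were lower in Sel1l CKO (1.01%). Among the histone genes 1 was called, H2bu2, which is 1.92% of those tested and below the share over all genes. The median standard error was 0.28 for the tested histone genes and 0.09 for all genes, so these shares do not rest on equal precision. At an unadjusted p under 0.05 there were 8 members, 7 lower and 1 higher, or 15.4%, beside 20.8% over all genes. In 2 members, both H2B genes, the Sel1l CKO values were all below the control values, and in 0 they were all above, where 5.59% and 9.15% of all tested genes had such an order.

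**Figure D2:**
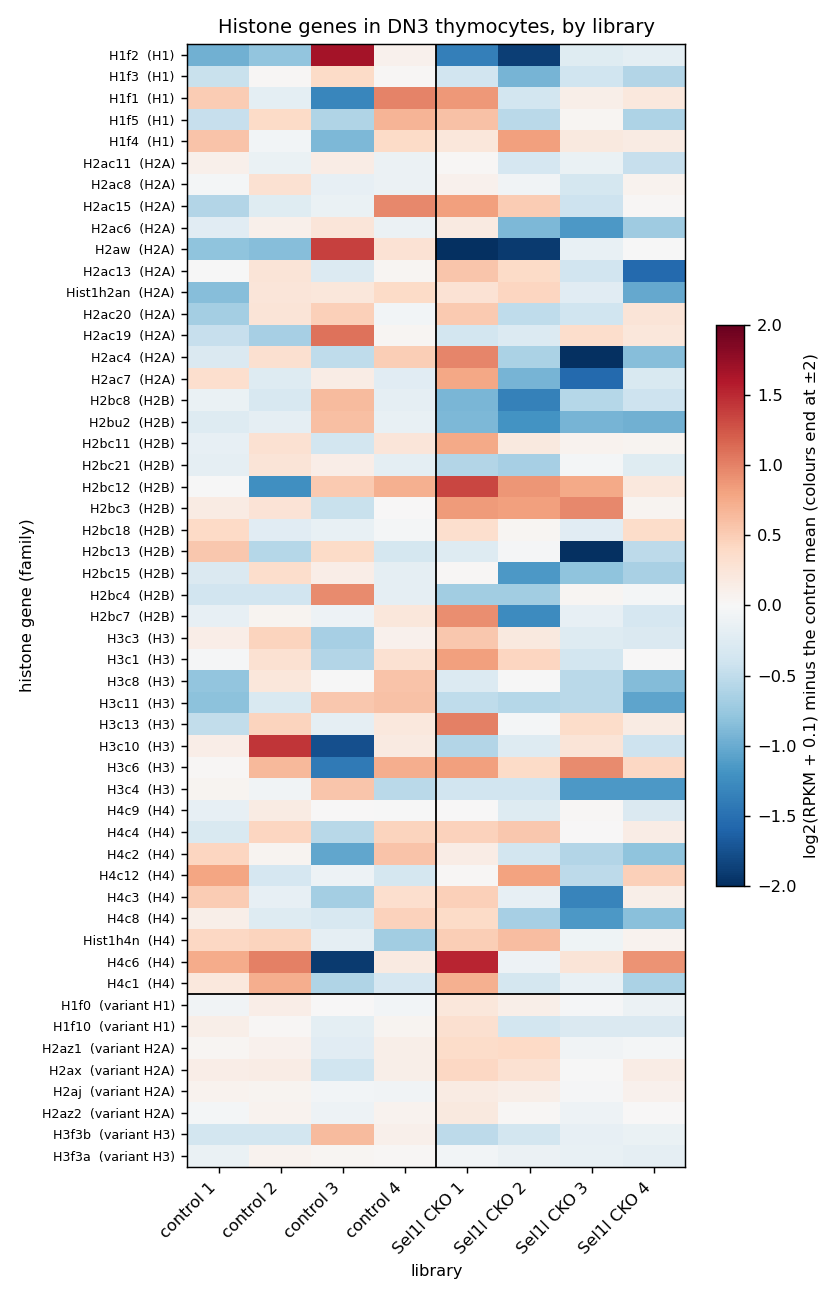
Each row is 1 of the 52 tested histone genes, grouped by kind and family and ordered by level, and each column is 1 library; the colour is log2(RPKM + 0.1) minus the mean of the 4 control libraries. Replication-dependent rows vary in both genotypes, with control 3 at both ends of the scale, while the 8 variant rows below the line are pale.

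H2bu2 (formerly Hist3h2ba, chromosome 11, 58948920 to 58949533, a gene with no introns) encodes an H2B and is 1 of the 2 cluster genes on that chromosome. It was at 15.9, 16.8, 28.9 and 17.2 RPKM in control and 10.2, 8.27, 9.95 and 9.70 in Sel1l CKO. Control 3 was the highest, the other controls lay within 15.9 to 17.2, and the genotypes did not overlap. The mean fell from 19.7 ± 6.18 to 9.54 ± 0.872 RPKM (48.5% of control), a log2 fold change of -0.997 (SE 0.18, limma adjusted p = 0.0115). These values rest on 196 to 625 reads a library. All of its stretches of 150 bases, the read length, were unique among annotated transcripts, and so its reads could be told from those of other H2B genes. Over 21 alternatives the adjusted p ranged from 0.00167 to 0.0711, and 19 kept the call, among them all 8 fits that left out 1 library. The call was lost without the filter on low values (adjusted p = 0.0574) and with replicates 3 and 4 alone (0.0711).

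H2bc8 (formerly Hist1h2bg, chromosome 13, 23571396 to 23572013) had the highest level among H2B genes. It was at 28.0, 24.5, 47.6 and 26.9 RPKM in control and 16.2, 11.98, 20.7 and 22.9 in Sel1l CKO, so the genotypes did not overlap, with control 3 again the highest. The log2 fold change was -0.81 (SE 0.25, adjusted p = 0.105), and it passed the threshold in 3 of 21 alternatives. Of the stretches of 150 bases in its annotated transcript, 61.0% were unique, and 9 other genes share the rest, so part of its reads may belong to them. The length solved from its values was 477 bases, where that transcript holds 618, so the unique share of the part counted is not known.

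H2aw (formerly Hist3h2a, chromosome 11, 58954685 to 58956830) is an H2A gene that lies next to H2bu2 on the same strand. It was at 1.96, 1.88, 9.18 and 4.31 RPKM in control and 0.640, 0.851, 3.13 and 3.48 in Sel1l CKO. Replicates 1 and 2 were lower than replicates 3 and 4 in both genotypes, and the genotypes overlapped. Its log2 fold change of -1.09 (SE 0.64, adjusted p = 0.371) was the most negative among members, and the threshold was passed in 3 of 20 alternatives. Without control 3 it was -0.63.

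H1f2 (formerly Hist1h1c), a linker histone gene, had the highest mean of the replication-dependent genes, at 30.3 RPKM over all libraries, but over the 7 libraries other than control 3 its mean, 20.4, was below those of H4c9 (23.3) and H2bc8 (21.6). It was at 16.1, 18.2, 99.98 and 33.6 in control and 12.1, 8.45, 26.7 and 27.6 in Sel1l CKO. The split between replicates 1 and 2 and replicates 3 and 4 was the same as in H2aw, and control 3 alone gave 5489 reads where the other libraries gave 664 to 1978. The log2 fold change was -0.92 (SE 0.60, adjusted p = 0.412), and -0.37 without control 3. H1f3 had the next highest mean of the replication-dependent linker genes on the deposited scale. It was at 4.0, 5.54, 7.18 and 5.56 in control and 4.15, 2.83, 4.13 and 3.60 in Sel1l CKO, a log2 fold change of -0.57 (SE 0.18, adjusted p = 0.111). It overlapped only through control 1, and without that library the adjusted p was 0.0454.

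**Figure D3:**
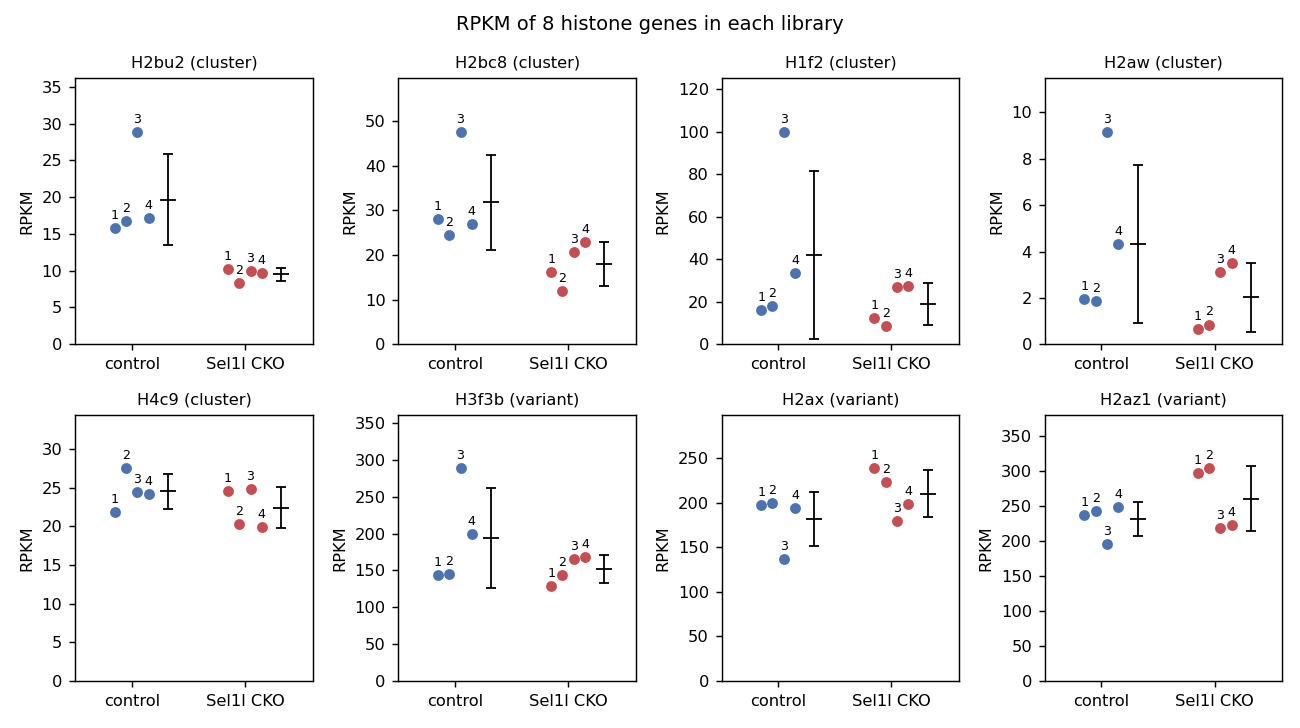
RPKM of 8 histone genes in each library, with the replicate number beside each point (control blue, Sel1l CKO red) and the mean ± SD (n = 4) at the right of each group; every axis starts at 0. H2bu2 and H2bc8 do not overlap between genotypes, control 3 is the highest control in H2bu2, H2bc8, H1f2, H2aw and H3f3b, and it is the lowest in H2ax and H2az1.

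The other replication-dependent genes of high level overlapped between genotypes. H4c9, the H4 gene of highest level, was at 24.5 ± 2.31 RPKM in control and 22.4 ± 2.64 in Sel1l CKO, and control 3, at 24.5, was within the range of the other controls. Its log2 fold change was -0.13 (SE 0.10, adjusted p = 0.482). H4c4 was at 4.18 ± 1.45 and 4.94 ± 0.857. The H3 genes H3c3 and H3c1 were at 9.31 ± 2.72 and 9.54 ± 2.72, and at 4.42 ± 1.18 and 5.27 ± 1.90. The H2A genes H2ac11 and H2ac8 were at 7.95 ± 0.800 and 6.80 ± 1.05, and at 6.90 ± 1.10 and 6.57 ± 0.881 RPKM. None of these passed the threshold (adjusted p from 0.305 to 0.936). Leaving out 1 library moved the log2 fold change of H4c4 from 0.29 to 0.10 (without control 3), that of H3c1 from 0.22 to 0.02 (without Sel1l CKO 1), and that of H3c3 from 0.05 to -0.17 (without control 3).

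The remaining large differences were in genes with few reads. H2ac4, at 1.56, 2.43, 1.32 and 2.75 RPKM in control and 3.91, 1.22, 0.0642 and 1.03 in Sel1l CKO, had a log2 fold change of -1.03 (SE 0.80, adjusted p = 0.487). Sel1l CKO 3 held 1 read, beside 70 in Sel1l CKO 1, and the value was -0.16 without Sel1l CKO 3. H2bc13 had -0.83 (SE 0.52, adjusted p = 0.394), with 4 reads in Sel1l CKO 3, and -0.26 without that library. The genotypes overlapped in both genes.

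On the positive side, H2bc3 had the smallest p. It was at 1.96, 2.13, 1.26 and 1.76 RPKM in control and 3.21, 3.16, 3.5 and 1.82 in Sel1l CKO, where replicates 1 to 3 lay above every control and replicate 4 lay among them. The log2 fold change was 0.67 (SE 0.22, adjusted p = 0.124), and without Sel1l CKO 4 the adjusted p was 0.0208. H2bc12 had the largest positive log2 fold change, 0.79 (SE 0.40, adjusted p = 0.303), at 2.35 ± 1.16 and 3.82 ± 1.22 RPKM, and 0.39 without control 2. Only 39.1% of its stretches of 150 bases were unique, and 10 genes share the others. H4c6, H3c6 and H3c13 had 0.64 (SE 0.61), 0.64 (SE 0.42) and 0.38 (SE 0.26), with adjusted p of 0.576, 0.418 and 0.432. In H4c6 control 3 held 2 reads, and in H3c6 it held 10. Without control 3 the log2 fold changes of these genes were 0.003 and 0.17, and without Sel1l CKO 1 that of H3c13 was 0.16.

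Over the 44 tested replication-dependent genes, 29 log2 fold changes were negative (65.9%) and 15 positive, with a median of -0.17 and a range of -1.09 to 0.79. Over all 6512 genes 47.4% were negative, with a median of 0.01. The median standard error was 0.30 for these members and 0.09 for all genes. By family the medians were -0.14 for H1 (5 genes), -0.23 for H2A (11), -0.34 for H2B (11), -0.10 for H3 (8) and -0.11 for H4 (9), and each was negative also under median-of-ratios scaling, quantile normalization and without control 3. In H2B, 5 of 11 genes (45.5%) had an unadjusted limma p under 0.05, H2bu2, H2bc8, H2bc15 and H2bc21 lower and H2bc3 higher. The share was 18.2% over the 44 replication-dependent genes, below the 20.8% over all tested genes. In H2A, 10 of 11 log2 fold changes were negative, and in no gene of that family was the threshold passed. With replicates 1 and 2 alone the median over the replication-dependent genes was 0.01, and with replicates 3 and 4 alone it was -0.31, so the sign of the median does not hold within both pairs of libraries.

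**Figure D4:**
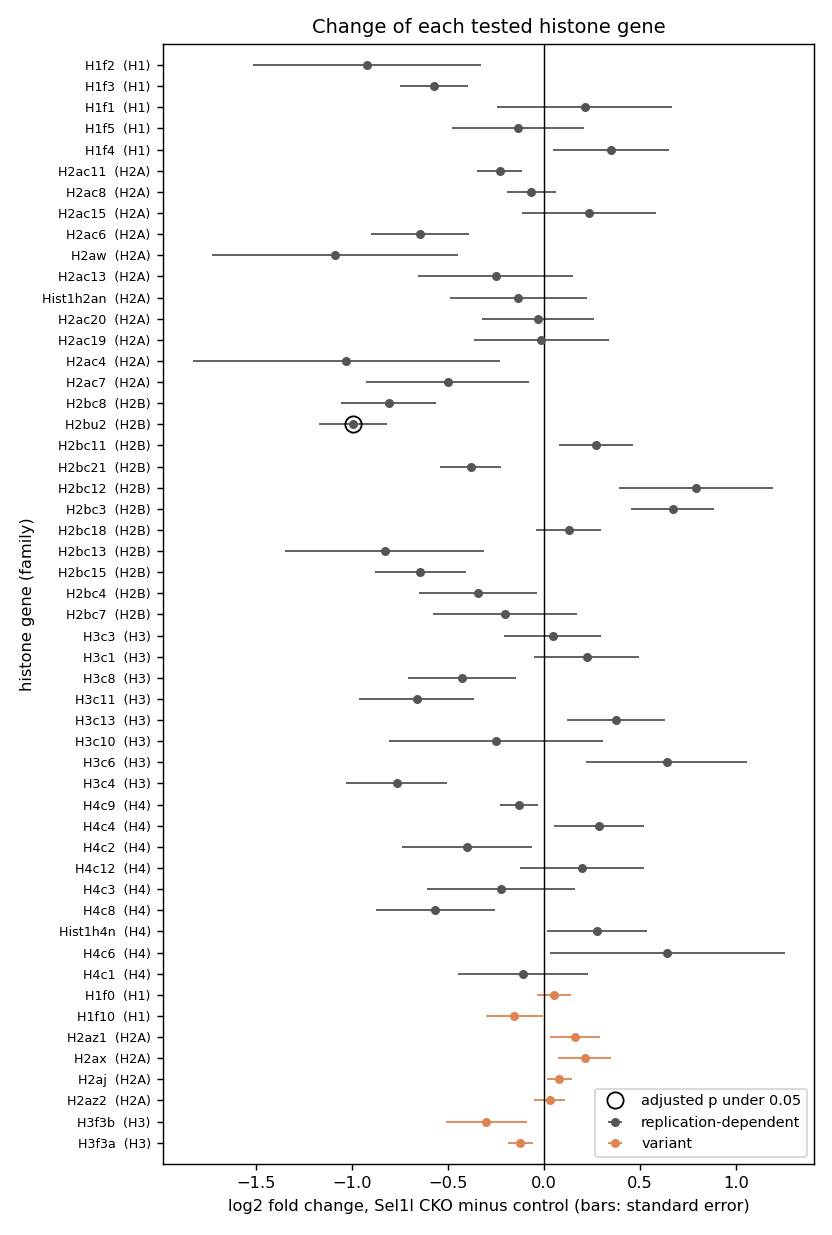
Log2 fold change, Sel1l CKO minus control, of each tested histone gene with its standard error (horizontal bar), in the order of the map by library; replication-dependent genes are grey, variant genes orange, and the ring marks an adjusted p under 0.05. H2bu2 alone is ringed, at -0.997, and the variant genes lie between -0.30 and 0.21.

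The variant genes had higher levels and smaller spread. Their 8 log2 fold changes ran from -0.30 to 0.21 with a median of 0.04 (-0.01 under quantile normalization), 3 were negative, none had an unadjusted p under 0.05 and none was called. The median standard error was 0.11. H2az1, which encodes H2A.Z, a variant found at promoters, was at 237, 243, 195 and 248 RPKM in control and 296, 304, 218 and 223 in Sel1l CKO. Replicates 1 and 2 of Sel1l CKO were above all controls and replicates 3 and 4 were not (log2 fold change 0.16, SE 0.13, adjusted p = 0.502). With replicates 1 and 2 alone it was 0.32, with an adjusted p of 0.0432. H2ax, whose product is phosphorylated at DNA breaks, was at 198, 200, 137 and 194 in control and 239, 223, 179 and 199 in Sel1l CKO. Control 3 was the lowest (log2 fold change 0.21, SE 0.14, adjusted p = 0.415, and 0.08 without control 3).

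H3f3b and H3f3a both encode H3.3, which is laid down outside replication. H3f3b was at 144, 145, 288 and 199 RPKM in control and 129, 143, 165 and 169 in Sel1l CKO, with control 3 the highest (log2 fold change -0.30, SE 0.21, adjusted p = 0.444, and -0.09 without control 3). H3f3a was at 40.7, 47.0, 46.1 and 45.7 in control and 43.2, 41.3, 40.5 and 39.7 in Sel1l CKO, overlapping through control 1 (log2 fold change -0.12, SE 0.07, adjusted p = 0.323). H1f0 and H1f10, linker histones, were at 27.4 ± 1.78 and 28.5 ± 2.96, and at 9.45 ± 0.864 and 8.63 ± 2.14 RPKM. The log2 fold change of H1f10 was -0.15, and -0.32 without Sel1l CKO 1. H2aj was at 39.9 ± 1.97 and 42.2 ± 2.27, and H2az2 at 6.20 ± 0.365 and 6.33 ± 0.545. The adjusted p of these 4 ranged from 0.504 to 0.858. The smallest standard errors among all members were those of H3f3a, H2aj and H2az2, at 0.07, 0.07 and 0.08.

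The RPKM denominator of 52 members was the M21 gene span, introns included, and that of 22 others was a length solved from the values. This matters for comparing levels between genes. On exon length, the control means of H3f3b, H3f3a, H2az1 and H2az2 were 394 ± 139, 168 ± 10.5, 316 ± 33.1 and 65.3 ± 3.85 RPKM. The order of H3f3b and H2az1 on that scale rests on control 3, since over controls 1, 2 and 4 the means were 330 ± 64.2 and 333 ± 8.06 RPKM (SD, n = 3). H2bc4, a cluster gene with an annotated intron, was at 1.88 ± 1.02 on the deposited scale and 13.5 ± 7.29 on exon length. H1f3, whose solved length is shorter than its M21 exon length, was at 5.57 ± 1.30 and 0.558 ± 0.130 in control, so its rank depends on the length used. The ratio of a gene between libraries does not depend on the length, but a sum over genes and a ratio of 2 sums do.

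Control 3 was the highest of the 8 libraries in 10 of 44 replication-dependent genes and the lowest in 11 (22.7% and 25.0%), near its shares of all tested genes (17.1% and 19.1%). Sel1l CKO 1 was the highest in 11 of the 44 (25.0%, beside 19.5% of all tested genes). Sel1l CKO 3 was the lowest in 10 (22.7%, beside 9.58%). The value of control 3 differed by more than 1 on the log2 scale from the mean of the other controls in 22.7% of these genes, 4 above and 6 below, in 0 of 8 variant genes, and in 1.24% of all genes. The 4 above were H1f2, H2aw, H2ac19 and H2bc4, at 4.42, 3.38, 2.79 and 2.48 times the mean RPKM of the other controls. The 6 below were H4c6, H3c10, H3c6, H1f1, H4c2 and H1f4, at 0.105 to 0.390 times. In control 3 these 6 held 2, 5, 10, 15, 27 and 16 reads, and the 4 above held 5489, 693, 69 and 991, in the orders named. The tested variant genes held at least 307 reads in every library. The part of read number in these shares was not tested. Of stretches of 150 bases, 0% were unique in H2ac19 and 9.54% in H3c10. In those 4 genes above, the mean of Sel1l CKO 3 and 4 also exceeded that of Sel1l CKO 1 and 2, by 1.41, 2.02, 0.61 and 0.69 on the log2 scale. In the 6 genes below, the same difference was -0.13, 0.35, 0.08, -0.08, -0.59 and -0.34, in the order named, so it had no common sign. The genes were picked for these values, so no test is given.

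Of the 23 members below the filter, Hist1h4m was the only one without overlap, where 7.14% of all 9344 genes below the filter with any value did not overlap. It was at 1.04, 1.20, 1.34 and 0.989 RPKM in control and 0.591, 0.543, 0.680 and 0.983 in Sel1l CKO, and rests on 9 to 23 reads. The two-sided exact permutation test gave p = 0.0286, the smallest that 4 libraries against 4 allow, and 0.657 after Benjamini-Hochberg adjustment over the 23. In this gene 14.2% of stretches were unique, so its reads are uncertain. The testis variant genes of this group, H2al1b, H2al1k and H2al1m, were at 0 to 0.795 RPKM. H2bc1, a germ-line gene of the chromosome 13 cluster that is counted as replication-dependent here, was at 0 to 0.158 RPKM.

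Genes that make, cut and carry histones were read beside the members. Of 17 tested genes of histone transcription and mRNA 3′ processing, none was called, with a median log2 fold change of 0.04. Slbp was at 10.1, 9.97, 8.50 and 10.3 RPKM in control and 12.6, 12.7, 9.65 and 8.84 in Sel1l CKO (log2 fold change 0.15, SE 0.13, adjusted p = 0.519). Npat was at 1.31, 1.08, 1.22 and 1.15 in control and 1.01, 0.960, 1.004 and 1.03 in Sel1l CKO, without overlap (log2 fold change -0.22, SE 0.08, adjusted p = 0.157). Snrpf, a core protein of small nuclear ribonucleoproteins, had 0.21 (adjusted p = 0.240). Of 24 tested histone chaperones none was called, with a median of 0.01. Atrx, which deposits H3.3 with DAXX, had -0.37 (SE 0.13, adjusted p = 0.157), and Nap1l4, a chaperone of H2A and H2B, 0.10 (adjusted p = 0.431).

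Of 32 tested genes of S phase and DNA replication, none was called, but 28 log2 fold changes were positive, with a median of 0.17 beside 0.01 over all genes. Cdc6, which loads the replicative helicase, was at 6.25, 6.29, 5.11 and 5.92 RPKM in control and 11.5, 10.2, 7.05 and 6.72 in Sel1l CKO, without overlap (log2 fold change 0.55, SE 0.17, adjusted p = 0.111). Fen1, the flap nuclease, had 0.34 (SE 0.15, adjusted p = 0.236). The list summed to 689, 658, 576 and 700 RPKM in control and 841, 850, 619 and 596 in Sel1l CKO. Sel1l CKO 1 and 2 were above every control, Sel1l CKO 3 and 4 were among them, and control 3 was the lowest of the 8. In control 3 the replication-dependent sum was the highest, through H1 and H2B. Its H4 sum (41.8 RPKM) was the lowest of the 8, and its H3 sum (21.7) the lowest of the controls. The median difference of replication-dependent genes from the control mean was -0.12 there on the log2 scale. With replicates 1 and 2 alone, 15 of the 73 tested genes of the 3 lists were called (20.5%), all higher, beside 8.98% of all genes at that setting. Cenpa, the centromeric H3 that the symbol rule leaves out, had 0.35 (SE 0.18, adjusted p = 0.307), and Macroh2a1 had -0.09 (adjusted p = 0.444).

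Members can share reads. Of the 76 genes, 18 were unique over all stretches of 150 bases, and in 24, of which 11 were tested, under 50% of stretches were unique. These shares are over the annotated M21 transcripts, which differ in length from the lengths solved for some members. How the counting treated shared reads and strand is not given in the sources used here, so the values of those genes are uncertain.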

How the data were processed

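The authors sorted DN3 thymocytes, made stranded poly(A)-selected libraries, sequenced 150-base paired ends, aligned them to GRCm38 with STAR 2.5.2b, obtained reads per protein-coding gene from HTSeq 2.7 and deposited a table of RPKM with 1 column for each of 8 libraries, all used. The authors tested counts with DESeq2. Since RPKM values are not counts, log2(RPKM + 0.1) was tested here for genes whose RPKM averaged at least 1, by limma 3.58.1 (R 4.3.3, mean-variance trend, genotype only, Benjamini-Hochberg, adjusted p under 0.05). In simulated data of 6512 genes for this comparison it recovered 198 of 200 genes changed by 2 on the log2 scale, with 8 false calls. That change is larger than any among the members (-1.09 to 0.79), so recovery of changes of their size was not tested. Members below the filter had exact permutation tests over 70 assignments.

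Low RPKM values were whole multiples of 1 read (within 0.05) with GENCODE M21 gene spans for 12134 genes (76.7%), against 4.53% with exon lengths, and reads of 15457 genes were recovered. For H2bc8, H1f3, H2bc3 and some others the length was solved from the values, since the M21 span gave no whole reads. limma voom on these reads tested 11748 genes. All 76 members were matched to M21 and promoters to RefSeq.

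The genes named are members past the threshold, variant genes over the filter, the 2 highest cluster genes of each family, the 5 largest changes each way, members under the filter without overlap, Slbp, Npat, and from each list the 2 lowest p. Other genes were named after their values were seen. The members, lists and tests were chosen with earlier results of these data known.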

Additional observations from a re-analysis of the deposited data

Results flagged for a closer look

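Dixon's ratio, the gap to the nearest library over the range of the group, was taken for 60 groups of 4 libraries (the named members, Sel1l and both sums), and 4 exceeded the 95% critical value, where chance gives about 1 in 20 groups. H2bu2 was at 28.9 RPKM in control 3, beside 15.9 to 17.2 in the other controls (ratio 0.899). H2bc8 was at 47.6 RPKM in control 3, beside 24.5 to 28.0 (0.849). H2ax was at 137 RPKM in control 3, beside 194 to 200 (0.916). H1f10 was at 11.8 RPKM in Sel1l CKO 1, beside 7.32 to 7.69 (0.918).

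In H2bu2 the library that stands apart is a control, and without it the log2 fold change kept its sign and its call.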

How the results depend on the processing

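Across the 21 alternatives, of which 1 (replicates 3 and 4 against 1 and 2 as a term) was chosen after seeing the data, the call of H2bu2 was lost in 2. The cause was not tested for the changes below, other than fewer genes or libraries by construction. The genes called (344) were 218 at a mean of at least 5 RPKM, 640 with array weights, 585 with replicates 1 and 2 only, 525 with the replicate term, and 243 to 317 when 1 library was left out. The members called (1) were 0 without the filter on low values, where 310 genes were called by limma, 5 with array weights, 6 with replicates 1 and 2 only, 3 with the replicate term and 1 to 4 when 1 library was left out (4 without Sel1l CKO 1, 2 without control 1 and 2 without Sel1l CKO 4). Between libraries of the same replicate number the correlations of deviations were 0.162, 0.097, 0.445 and 0.005, with 1 of 4 controls closest to its own number. Control 1 was closest to Sel1l CKO 2, control 2 to Sel1l CKO 1 and control 4 to Sel1l CKO 2. These 4 correlations cannot decide whether the samples were paired. With the replicate block 317 genes and 3 members were called (H2bu2, H2bc8 and H2aw), 1 gene of the pathway lists was called, the medians were -0.17 and 0.04 for replication-dependent and variant genes, and Sel1l had -0.59 with an adjusted p of 0.0601. Pathway genes called (0) were 15 with replicates 1 and 2 only and 1 with the replicate term. Sel1l lost its call without the filter (-0.59), with replicates 3 and 4 only (-0.30), and in 6 of the 8 fits without 1 library (-0.686 to -0.506 over all 8). The variant median changed sign in 4 alternatives (-0.05 with array weights, -0.01 under quantile normalization and without Sel1l CKO 1, -0.03 with replicates 3 and 4 only). Members that had no call and changed sign were H1f0 (-0.016 under quantile normalization, -0.015 with array weights, -0.043 with replicates 3 and 4 only, -0.005 to 0.106 without 1 library), H2az1 (-0.047 with array weights), H2az2 (-0.014, -0.056 and -0.028 in these 3 settings, -0.024 to 0.073 without 1 library), H2ac8 (0.003 with replicates 3 and 4 only, -0.119 to 0.038 without 1 library), H3c3 (-0.013 under quantile normalization, -0.275 with array weights, -0.174 to 0.192 without 1 library), H3c1 (-0.217 with array weights, -0.035 with replicates 3 and 4 only), H2ac4 (0.163) and H4c6 (-0.165) with replicates 1 and 2 only, and H2bc12 (-0.133) with replicates 3 and 4 only.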
